A study of Homo sapiens with 12 samples.

Results

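The control cells of 2 established human colorectal cancer lines, HCT116 and LoVo, were compared by RNA sequencing, to describe which genes, lineages and pathways set the lines apart. Libraries were chosen by their labels: the 3 HCT116 control libraries, whose columns are headed as empty vector, and the 3 LoVo control libraries, whose columns are headed as control short hairpin RNA, which makes 6 of the 12 libraries of the series. The other 6 libraries, in which the long non-coding RNA SLERT was overexpressed in HCT116 or knocked down in LoVo, did not enter. The series was made to study SLERT in liver metastasis of colorectal cancer. Every control library carried a control construct, a vector in one line and a hairpin in the other, so that line, construct and any batch of preparation cannot be told apart. Each line stands for itself, not for a class of tumours. The labels do not tell whether the 3 libraries of a line are separate cultures. The p-values therefore speak only for the spread among these libraries, and that spread may be technical.

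Of 62656 genes in the count table, 17143 passed the count filter in these 6 libraries and were tested. Library totals ran from 16.11 to 17.23 M counts in HCT116 and from 14.46 to 14.95 M in LoVo. Levels are counts per 1e6 counts after TMM scaling (CPM), given as mean ± SD over 3 libraries (n = 3), HCT116 before LoVo. Log2 fold changes are LoVo minus HCT116 with their standard errors (SE), so positive values mean more RNA in LoVo.

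As background, the colon epithelium renews itself from stem cells at the crypt base that are kept by Wnt signalling, and its cells mature into absorptive colonocytes and mucus-secreting goblet cells as they leave the crypt. Transcription factors of the CDX, HNF4 and KLF families set the intestinal programme, and tumours keep or lose parts of it. Both lines are known for defective DNA mismatch repair. LoVo was grown from a metastatic site and HCT116 from a primary tumour of the colon.

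The labelled cell type was checked against epithelial and colon markers. EPCAM, CDH1, KRT8, KRT18, KRT19, CLDN4 and CLDN7 were detected in all 6 libraries, KRT8 at 2664 ± 45 against 4906 ± 218 CPM and EPCAM at 202 ± 4.87 against 274 ± 13.1 CPM. The colon markers CDX2 and KRT20 were present in both lines, whereas VIL1, CDH17, GPA33, LGALS4 and CEACAM5 averaged under 1 CPM in HCT116. Markers of other cell types were mostly at or near 0. The summed leukocyte markers came to 15.1 to 17.5 CPM in HCT116 and 8.15 to 9.84 CPM in LoVo, with PTPRC at 2 and 13 counts over the 3 libraries, and CD3E at 1 and 0. Fibroblast and endothelial markers summed to 88.2 to 95.9 against 27.8 to 29.7 CPM, of which COL1A1 made up most in HCT116 while COL1A2 had 1 and 0 counts and DCN 0 and 3. Hepatocyte markers summed to 81.1 to 84.4 against 7.14 to 8.54 CPM, mainly CPS1, with ALB at 15 and 3 counts. The extraction protocol in the labels speaks of retinas, and retina markers summed to 16.9 to 21.8 against 16.1 to 17.4 CPM, with CRX at 1 and 0 counts.

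The lines differed in most of their transcriptome. In the edgeR quasi-likelihood test with Benjamini-Hochberg adjustment over all genes tested, 13535 of 17143 genes (79.0%) differed at an adjusted p under 0.05, 6692 higher in LoVo and 6843 higher in HCT116. A call against no difference therefore separates little, and genes were further tested against a 2-fold difference in the same fit. Of the 17143 genes, 5385 (31.4%) were past 2-fold, 2700 (15.7%) higher in LoVo and 2685 (15.7%) higher in HCT116. The list counts below are to be read against this share of 15.7% in each direction. Below, "higher" without further words is kept for genes past that 2-fold test, and adjusted p-values are those of that test unless a test against no difference is named. The fitted difference exceeded 16-fold in 1590 of the genes past 2-fold, 707 higher in LoVo and 883 higher in HCT116. Over all tested genes the median log2 fold change was 0.00 and the median of its size was 0.74, and the levels of the lines had a rank correlation of 0.832 across genes, which are not independent replicates. Libraries of a line correlated at 0.991 to 0.9917 and libraries of different lines at 0.768 to 0.7701, and the first principal component, which held 95.1% of the variance, separated the lines.

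**Figure D1:**
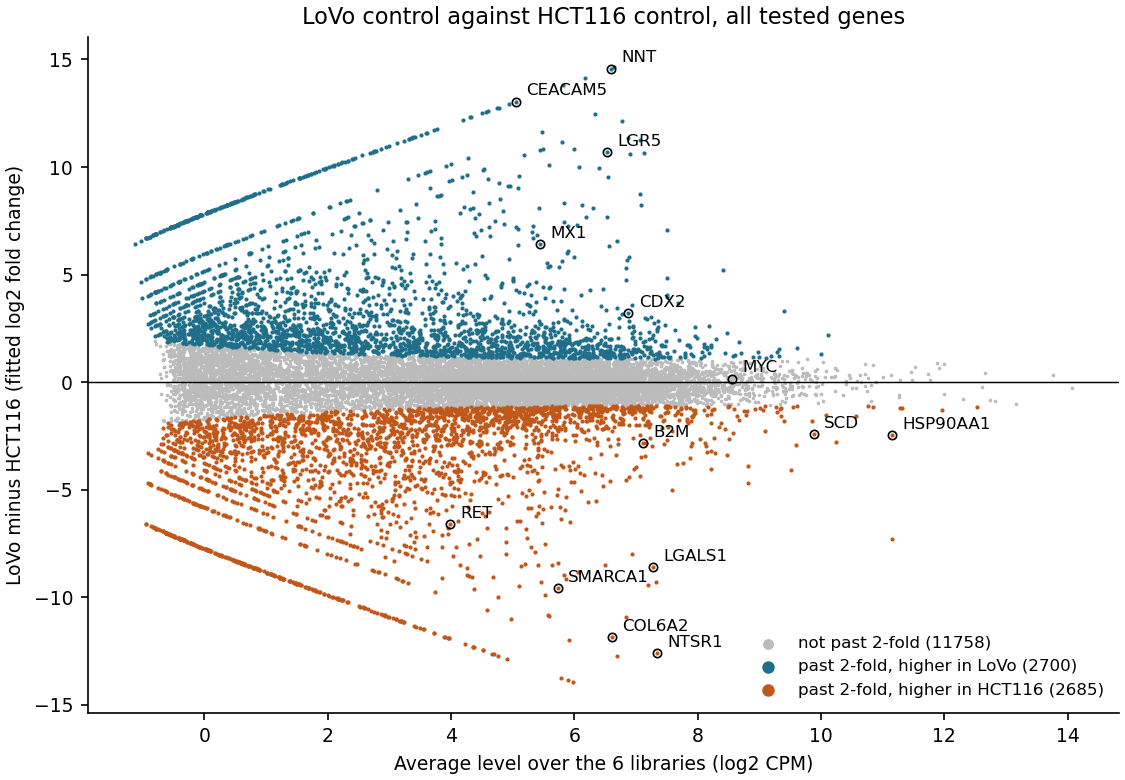
Each point is 1 of 17143 tested genes, with the average log2 CPM of the 6 libraries on the horizontal axis and the log2 fold change, LoVo minus HCT116, on the vertical axis. Coloured points are the 2700 genes past 2-fold higher in LoVo and the 2685 higher in HCT116, and differences of this size occur at every level of expression.

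The transcription factors of intestinal identity were mostly higher in LoVo. Of 25 tested factors of a list of 30, 15 were higher in LoVo and 5 in HCT116, with a median log2 fold change of 1.39 against 0.00 over all genes. CDX2, the homeobox factor that directs intestinal fate, measured 25.7, 21.9 and 21.1 CPM in the libraries of HCT116 and 232, 195 and 211 CPM in the libraries of LoVo. All LoVo values lay far above all HCT116 values, with a log2 fold change of 3.21 ± 0.075 (edgeR adjusted p = 3.4e-23). HNF4A, a nuclear receptor that activates enterocyte genes, measured 23.4, 20.6 and 22 CPM in the libraries of HCT116 and 202, 190.1 and 200.5 CPM in the libraries of LoVo. That is a log2 fold change of 3.17 ± 0.065 (edgeR adjusted p = 1.71e-24), about as large as that of CDX2, with no overlap between the lines.

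Among the forkhead factors, which open chromatin for other factors, FOXA2 (0.64 ± 0.139 against 28.8 ± 0.297 CPM) and FOXA1 (2.48 ± 0.291 against 29.5 ± 2.21 CPM) were higher in LoVo, while FOXA3 (7.57 ± 1.6 against 0.654 ± 0.331 CPM) was higher in HCT116. MYB, a factor of proliferating crypt cells, stood at 5.7 ± 1.35 against 86.5 ± 6.16 CPM, and ISX, an intestine-specific homeobox gene, at 0.125 ± 0.0672 against 12.9 ± 1.41 CPM, both higher in LoVo. CDX1, another caudal factor, measured 0 CPM in all 3 libraries of HCT116 and 1.68, 1.49 and 1.95 CPM in the libraries of LoVo. ELF3, EHF, KLF5, HNF4G, PRDM1, NR1I2 and HES1 were also higher in LoVo. TCF7L2, which binds β-catenin at Wnt target genes, was higher in HCT116 at 220.1, 198 and 193 CPM in the libraries of HCT116 and 52.9, 48 and 52.6 CPM in the libraries of LoVo, a log2 fold change of -2.00 ± 0.062 (edgeR adjusted p = 2.74e-16). ONECUT2 (38.1 ± 1.2 against 5.69 ± 1.75 CPM) and NR5A2 were also higher in HCT116.

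Many genes of absorptive cells were nearly silent in HCT116 and well expressed in LoVo. Of 25 tested genes of a list of 41, 17 were higher in LoVo and 5 in HCT116, with a median log2 fold change of 3.52. The remaining 16 listed genes, among them FABP1, ALPI, SI and SLC26A3, had too few counts to be tested, in either line. In these bulk libraries, fewer cells of a type and less RNA per cell cannot be told apart. VIL1, which bundles actin in the brush border, measured 0.06, 0.0606 and 0.13 CPM in the libraries of HCT116 and 96.4, 94.1 and 101 CPM in the libraries of LoVo. CDH17, the liver-intestine cadherin, measured 0.48, 0.303 and 1.1 CPM in the libraries of HCT116 and 266, 277 and 261 CPM in the libraries of LoVo. TSPAN8, a tetraspanin of gut epithelium, stood at 0.0816 ± 0.0912 against 234 ± 15.7 CPM. In each of the 3, no HCT116 library came within 100-fold of a LoVo library.

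CEACAM5, which encodes carcinoembryonic antigen, measured 0 CPM in all 3 libraries of HCT116 and 72.6, 64 and 64.2 CPM in the libraries of LoVo, at least 1080-fold higher in LoVo against a floor of 3 counts over the 3 HCT116 libraries. Its neighbour CEACAM6 stood at 0.0418 ± 0.0363 against 36.6 ± 0.693 CPM. The peptidase gene DPP4 (13.8 ± 0.709 against 159 ± 9.35 CPM), the sodium-proton exchanger gene SLC9A3 (4.49 ± 0.475 against 39.5 ± 2.85 CPM) and the microvillus myosin gene MYO1A (1.07 ± 0.0991 against 20.1 ± 1.71 CPM) were higher in LoVo with a measurable level in HCT116. KRT20, the keratin of differentiated colonocytes, measured 2.04, 0.969 and 1.62 CPM in the libraries of HCT116 and 12.7, 12.8 and 11.1 CPM in the libraries of LoVo. Both lines were low for this marker, and LoVo was higher by a log2 fold change of 2.98 ± 0.20 (edgeR adjusted p = 6.18e-11).

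Among the 5 enterocyte genes higher in HCT116, CA2, a cytosolic carbonic anhydrase of colonocytes, measured 57.4, 54.4 and 57.5 CPM in the libraries of HCT116 and 2.78, 3.04 and 2.96 CPM in the libraries of LoVo, and the lines did not overlap (log2 fold change -4.26 ± 0.11, edgeR adjusted p = 1.12e-22). ESPN, an actin-bundling protein of microvilli, stood at 85 ± 5.09 against 13.7 ± 0.286 CPM. MGAM, SLC5A1 and SLC15A1, which act in sugar and peptide uptake, were also higher in HCT116 but averaged at most 1.13 CPM there. USH1C (37.5 ± 2.15 against 63.5 ± 4.38 CPM), CDHR2 and CDHR5, which make up the links between microvilli, were not past 2-fold.

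Goblet and secretory genes leaned the same way. Of 20 tested, 10 were higher in LoVo and 1 in HCT116, with a median of 1.34. MUC13, a membrane mucin, measured 0.06, 0 and 0.389 CPM in the libraries of HCT116 and 234, 241 and 240.5 CPM in the libraries of LoVo, and REG4, a secreted lectin of enteroendocrine and goblet cells, 0.42, 0.303 and 0 CPM in the libraries of HCT116 and 180.3, 197 and 184 CPM in the libraries of LoVo. MUC2, the gel-forming mucin of the colon, stood at 0.471 ± 0.113 against 67.8 ± 4.69 CPM and AGR2, which folds mucins, at 0.02 ± 0.0346 against 14 ± 2.4 CPM. Every LoVo library was above every HCT116 library in all 4. The goblet determinants ATOH1 and SPDEF were too low to test in both lines. MUC5B, MUC6, MUC12 and MUC20 had lower means in LoVo without being past 2-fold, so the mucins did not move together, and KLK1 was the gene higher in HCT116.

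Ion transport genes of the colon were split. CFTR, the chloride channel of crypt cells, measured 1.02, 1.33 and 0.324 CPM in the libraries of HCT116 and 269, 270.5 and 272 CPM in the libraries of LoVo, a log2 fold change of 8.21 ± 0.12 (edgeR adjusted p = 4.75e-30) with no overlap. SLC6A20 (1.82 ± 0.171 against 117 ± 3.47 CPM), SLC9A3 and AQP3 (8.79 ± 0.782 against 45.5 ± 1.38 CPM) were higher in LoVo as well. In contrast, KCNN4, a calcium-activated potassium channel, stood at 56.8 ± 2.28 against 2.88 ± 0.273 CPM, and KCNQ1 and TRPV6 were also higher in HCT116. The list as a whole had 6 of 21 tested genes higher in LoVo and 3 in HCT116, with a median of 0.04.

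Keratins and HOX genes, which report epithelial type and position along the body axis, had more members higher in LoVo than in HCT116. Of 16 tested keratins, 9 were higher in LoVo and 2 in HCT116. KRT4 (0.0418 ± 0.0363 against 31.5 ± 0.867 CPM), KRT80 (3.56 ± 0.223 against 65.8 ± 0.596 CPM), KRT13 (1.13 ± 0.549 against 26.1 ± 1.43 CPM) and KRT5 (0.308 ± 0.101 against 17 ± 1.33 CPM), keratins best known from stratified epithelia, had little RNA in HCT116. KRT23 went the other way, at 15.1, 16.3 and 14.7 CPM in the libraries of HCT116 and 0 CPM in all 3 libraries of LoVo, at least 234-fold higher in HCT116. Keratin genes are similar in sequence and may share reads, which was not tested.

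Among 28 tested HOX genes of 39, 12 were higher in LoVo and 3 in HCT116, with a median of 1.11. HOXA13, a gene of the hindgut end of its cluster, stood at 7.57 ± 0.0152 against 145 ± 2.4 CPM, HOXB9 at 30.1 ± 2.28 against 121 ± 7.11 CPM, HOXB3 at 13 ± 0.122 against 88 ± 7.1 CPM and HOXB6 at 16.5 ± 0.561 against 86 ± 5.65 CPM. HOXB5 was also higher in LoVo, while HOXB4, HOXB7, HOXB8 and HOXB13 were not past 2-fold. HOXC13 (6.49 ± 0.999 against 0.435 ± 0.143 CPM), HOXC10 and HOXD8 were higher in HCT116, while HOXC4, HOXC6 and HOXC8 were higher in LoVo, so the ends of the HOXC cluster differed in direction.

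**Figure D2:**
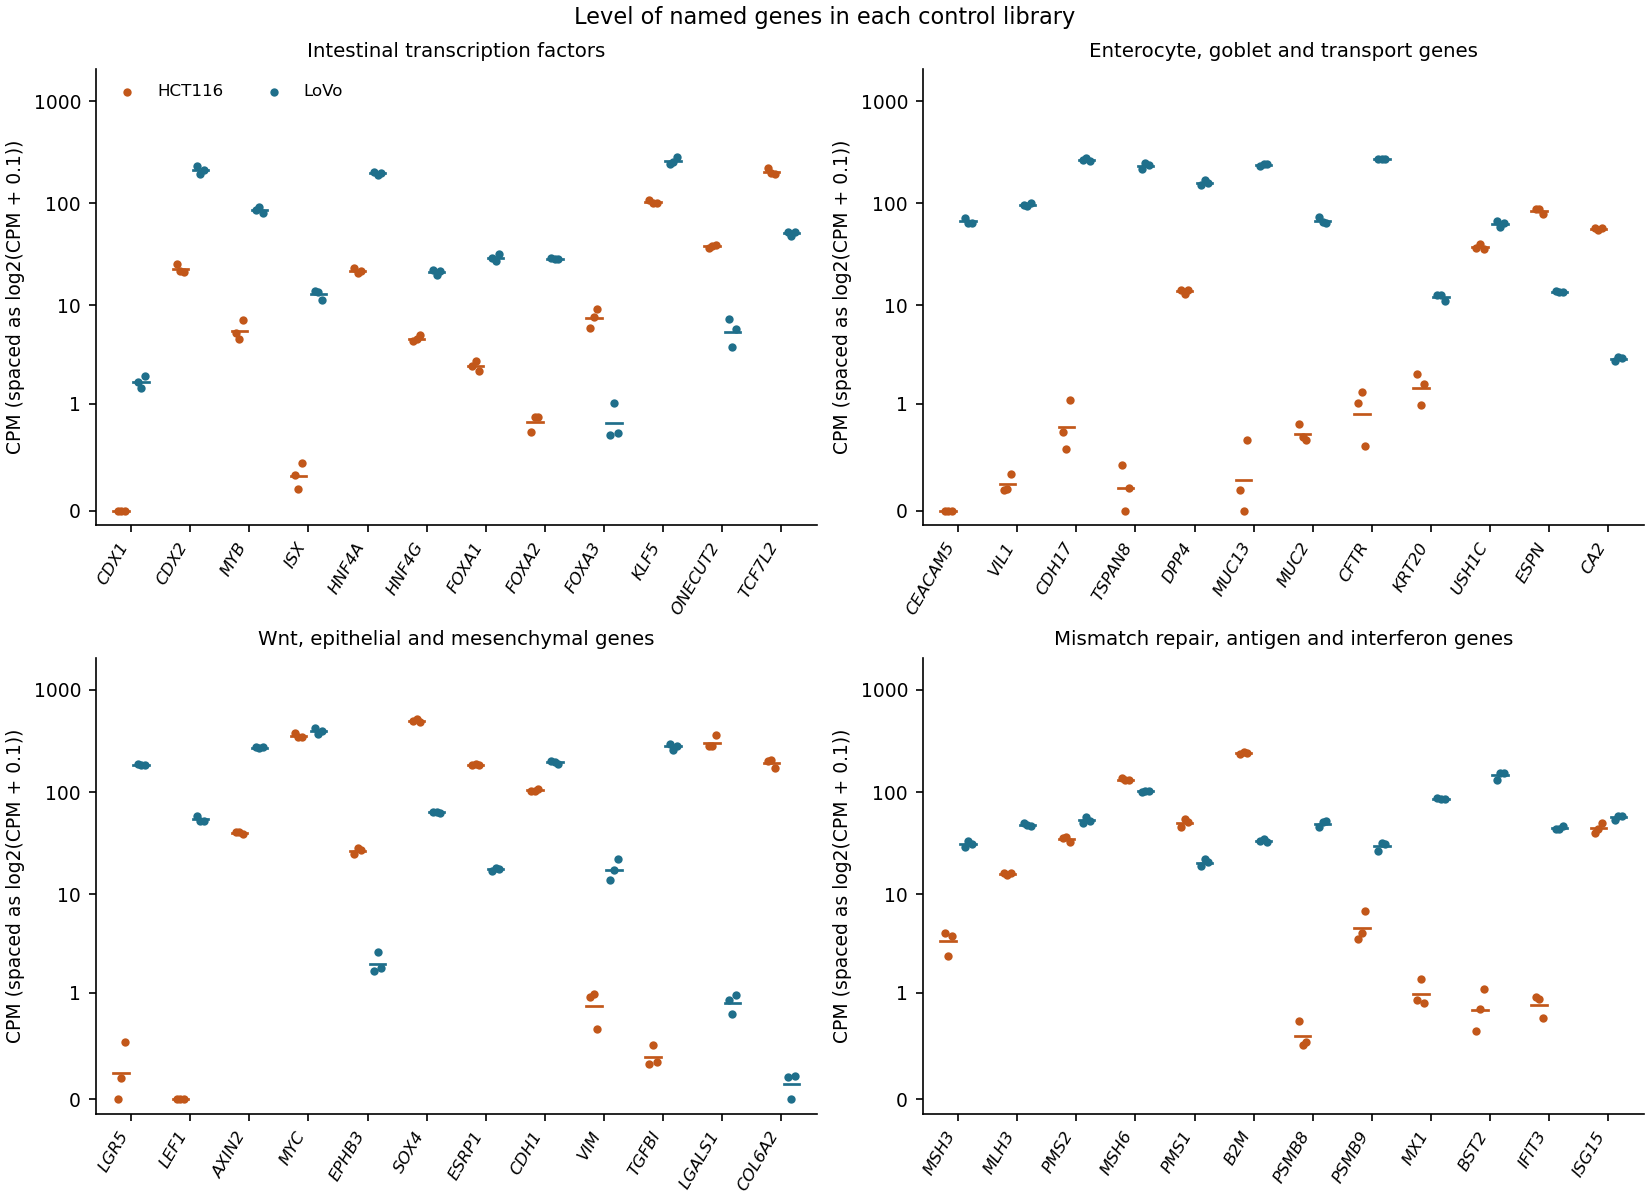
Each point is 1 library, in 4 panels of 12 genes each, with the level in CPM on a logarithmic axis (spaced as log2(CPM + 0.1)) and bars at the mean of the log values of each line. CDX2, MYB, VIL1, CDH17, LGR5, MSH3, MX1 and PSMB8 lie higher in LoVo, whereas ONECUT2, CA2, SOX4, ESRP1, LGALS1 and B2M lie higher in HCT116.

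Since the RNA of HNF4 factors differed between the lines, the 250 bases before the start of genes were searched for the textbook letters of their motif. Promoters came from the RefSeq table on GRCh38.p14, in which 11850 of the 17128 names of tested genes were found. The table held 35116 promoters for 27305 genes, and a gene with several starts counted if any of them held the letters. The letters CAAAGTCCA, on either strand, lie within HNF4 binding motifs, and were present before 110 of all 27305 RefSeq genes (0.403%) and 47 of the tested genes (0.397%). The letters stood before 12 of 1647 genes higher in LoVo (0.729%) and 2 of 1775 higher in HCT116 (0.113%). Among genes not past 2-fold they stood before 33 of 8430 (0.391%). These counts are small and were not tested. A second motif was searched too and is not reported here. A match is a description of sequence, not of binding. The promoters of MUC13 and MYO1A are shown because each gene was higher in LoVo and holds this match near its start. They were chosen after their values were seen. MUC13 lies at chr3:124934752-124935001 and MYO1A at chr12:57050130-57050379, both on the minus strand, with the HNF4 letters in capitals, 51 and 30 bases before the start. Sequences run 5′ to 3′ along the gene and end at the base before its start.
MUC13: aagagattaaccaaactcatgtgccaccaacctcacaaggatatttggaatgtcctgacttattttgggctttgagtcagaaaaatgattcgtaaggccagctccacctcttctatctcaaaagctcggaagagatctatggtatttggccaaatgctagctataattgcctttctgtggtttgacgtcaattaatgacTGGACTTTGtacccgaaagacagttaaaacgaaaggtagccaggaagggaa
MYO1A: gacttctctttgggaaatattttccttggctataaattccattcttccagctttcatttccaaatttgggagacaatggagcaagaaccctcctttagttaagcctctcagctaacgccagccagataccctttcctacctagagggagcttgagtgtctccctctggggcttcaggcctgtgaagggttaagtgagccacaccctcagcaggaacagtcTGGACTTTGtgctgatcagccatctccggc
Both capitalised matches read on the strand opposite to the gene. Other genes with an HNF4 match that were higher in LoVo included GPR35 (4.41 ± 0.55 against 92.8 ± 2.88 CPM), HMGCS1 (81 ± 1.05 against 262 ± 9.01 CPM) and SPRY2 (10.7 ± 1.52 against 63.9 ± 1.08 CPM). MIR100HG and BAG6 hold the match too and were higher in HCT116.

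Stem cell and Wnt target genes were divided between the lines. Of 25 tested, 8 were higher in LoVo and 9 in HCT116, with a median of -0.53. LGR5, the R-spondin receptor that marks crypt stem cells, measured 0, 0.0606 and 0.26 CPM in the libraries of HCT116 and 187, 186 and 182 CPM in the libraries of LoVo. It was nearly silent in HCT116 and well expressed in every LoVo library, a log2 fold change of 10.70 ± 0.16 (edgeR adjusted p = 6.36e-30). LEF1, a partner of β-catenin, stood at 0 ± 0 against 54.1 ± 3.24 CPM, at least 876-fold higher in LoVo. AXIN2, the feedback inhibitor used as a readout of Wnt activity, measured 40.3, 40.4 and 39.3 CPM in the libraries of HCT116 and 275, 269 and 273 CPM in the libraries of LoVo. It was expressed in both lines and higher in LoVo in all 3 libraries (log2 fold change 2.77 ± 0.057, edgeR adjusted p = 6.67e-24).

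Other Wnt-linked genes had the reverse order. SOX4, a factor of progenitor cells, measured 490.5, 519 and 480.4 CPM in the libraries of HCT116 and 64.3, 64.5 and 62.4 CPM in the libraries of LoVo (log2 fold change -2.96 ± 0.057, edgeR adjusted p = 4.69e-25), without overlap. EPHB3 (26.8 ± 1.94 against 2.05 ± 0.526 CPM) and EPHB2 (78.1 ± 4.06 against 25.4 ± 1.53 CPM), receptors that position cells along the crypt, were higher in HCT116. So were the secreted inhibitors DKK1 (251 ± 8.44 against 34.9 ± 1.97 CPM) and NOTUM (18.7 ± 1.12 against 1.9 ± 0.475 CPM), together with NKD1, RNF43, LRIG1 and CD44. MYC, at 374, 349.7 and 344 CPM in the libraries of HCT116 and 428, 374 and 394 CPM in the libraries of LoVo, was not past 2-fold, with a log2 fold change of 0.16 ± 0.056. LEF1 and TCF7L2, which bind the same DNA sequences, thus differed in opposite directions, and TCF4, a basic helix-loop-helix factor despite its name, stood at 0 ± 0 against 10.9 ± 1.75 CPM.

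Epithelial identity genes were mostly expressed in both lines, with more of them higher in HCT116. Of 25 tested genes, 3 were higher in LoVo and 9 in HCT116 (median -0.37), and 13 were not past 2-fold. ESRP1, which sets epithelial splicing, measured 184, 189 and 182 CPM in the libraries of HCT116 and 16.8, 18.3 and 17.5 CPM in the libraries of LoVo, a log2 fold change of -3.40 ± 0.066 (edgeR adjusted p = 2.22e-25). GRHL2 (39 ± 2.99 against 9.66 ± 1.07 CPM), an epithelial transcription factor, CDH3 (227 ± 4.02 against 62 ± 3.42 CPM) and RAB25 (56.6 ± 3.82 against 16.5 ± 1.03 CPM) were higher in HCT116, and PRSS8 was near 0 in LoVo (28 ± 0.619 against 0.196 ± 0.111 CPM). CDH1, the cell adhesion gene E-cadherin, stood at 104 ± 2.41 against 196 ± 6.53 CPM and was not past 2-fold. OVOL2, ELF3 and KRT18 (588 ± 41.1 against 1465 ± 54.6 CPM) were higher in LoVo.

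Of 29 tested mesenchymal genes, 6 were higher in LoVo and 11 in HCT116, with a median of -0.94. LGALS1, galectin 1, measured 280.4, 280.1 and 362 CPM in the libraries of HCT116 and 0.842, 0.583 and 0.943 CPM in the libraries of LoVo, abundant in every HCT116 library and under 1 CPM in LoVo (log2 fold change -8.59 ± 0.14, edgeR adjusted p = 4.18e-29). FN1, fibronectin (77 ± 3.1 against 7.31 ± 0.499 CPM), LOXL2 (80.9 ± 4.51 against 1.07 ± 0.5 CPM), CALD1 (156 ± 3.63 against 15.3 ± 1.74 CPM), AXL (46.6 ± 3.11 against 4.63 ± 0.142 CPM) and SNAI1 (32.1 ± 2.5 against 6.58 ± 0.883 CPM) were also higher in HCT116. TGFBI, a matrix protein, went the other way at 0.12, 0.242 and 0.13 CPM in the libraries of HCT116 and 299, 260.5 and 281 CPM in the libraries of LoVo, a log2 fold change of 10.66 ± 0.13 (edgeR adjusted p = 2.87e-31). VIM, the intermediate filament vimentin, measured 0.9, 0.969 and 0.389 CPM in the libraries of HCT116 and 13.8, 17.1 and 22.3 CPM in the libraries of LoVo, so that all LoVo libraries were above all HCT116 libraries at a modest level. ZEB1 (5.34 ± 0.532 against 24.5 ± 2.14 CPM), TPM1 (16.9 ± 0.745 against 93.7 ± 2.89 CPM) and CDH11 were higher in LoVo as well. Each line therefore held its own set of genes from this list beside an expressed CDH1.

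Collagens were mostly higher in HCT116. Of 24 tested, 14 were higher in HCT116 and 3 in LoVo, with a median of -2.38 against 0.00 over all genes. COL6A2, a chain of the microfibril collagen VI, measured 202, 207 and 170.3 CPM in the libraries of HCT116 and 0.0647, 0 and 0.0674 CPM in the libraries of LoVo. With 2 counts in LoVo the ratio of counts per TMM-scaled library total was 4430 (95% interval 1230 to 36600), an interval that covers counting error only. COL6A1, whose product pairs with it, stood at 201 ± 7.01 against 100.5 ± 6.64 CPM and was not past 2-fold. COL12A1 measured 110.0, 110.0 and 103 CPM in the libraries of HCT116 and 1.29, 0.906 and 1.69 CPM in the libraries of LoVo, COL1A1 82.8 ± 3.82 against 1.2 ± 0.406 CPM and COL18A1 132 ± 15 against 3.89 ± 0.519 CPM, each far above LoVo in every library.

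The basement membrane chains COL4A5 and COL4A6, neighbours on chromosome X, had 0 counts in LoVo. COL4A5 measured 47.5, 51.5 and 53.6 CPM in the libraries of HCT116 and 0 CPM in all 3 libraries of LoVo, at least 775-fold higher in HCT116, and COL4A6 stood at 8.99 ± 0.538 against 0 ± 0 CPM. COL4A3 and COL4A4, another neighbouring pair, were higher in HCT116 too. COL17A1 (7.85 ± 0.505 against 131 ± 9.58 CPM), which anchors epithelia to the basement membrane, COL3A1 (0.1 ± 0.173 against 12.5 ± 0.12 CPM) and COL4A2 were higher in LoVo. Since COL1A1 is also a fibroblast marker, its partner COL1A2 is given again: 1 count over the HCT116 libraries and 0 over those of LoVo.

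Receptors and cleavage enzymes of the matrix were less one-sided. Of 29 tested integrin, laminin and basement membrane genes, 6 were higher in LoVo and 7 in HCT116, against 15.7% of all tested genes in each direction. ITGA3 (647 ± 18.5 against 62.4 ± 2.97 CPM) and ITGA5 (116 ± 6.51 against 8.84 ± 1.44 CPM), which bind laminin and fibronectin, and LAMC3 (46.5 ± 1.65 against 0.411 ± 0.324 CPM) were higher in HCT116. LAMA3 (15.1 ± 0.988 against 76.4 ± 5.75 CPM) and LAMB3 (71 ± 3.41 against 220.3 ± 7.92 CPM), chains of epithelial laminin, were higher in LoVo, and ITGB4 (468 ± 17.7 against 932 ± 48.5 CPM) was not past 2-fold. SERPINE2, a protease inhibitor, was abundant in LoVo at 126 ± 4.17 against 1228 ± 15.4 CPM, whereas the plasminogen activator genes PLAU (20.3 ± 2.47 against 3.26 ± 0.482 CPM) and PLAUR (56.8 ± 4.74 against 14.2 ± 1.27 CPM) were higher in HCT116. Of 30 junction genes, 5 were higher in LoVo, led by CLDN1 (0.883 ± 0.131 against 37.9 ± 0.461 CPM) and CLDN2 (5.83 ± 0.484 against 77.7 ± 2.33 CPM), and 3 in HCT116, namely JUP, TJP3 and PARD6B. YAP and TEAD target genes had 9 of 24 higher in LoVo, among them AJUBA (41.1 ± 0.536 against 138 ± 6.49 CPM) and IGFBP3 (1.64 ± 0.192 against 24.1 ± 2.75 CPM), and 2 in HCT116, AXL and AMOTL1 (90.5 ± 2.19 against 0.476 ± 0.42 CPM), while CCN1 and CCN2 were not past 2-fold.

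Among mismatch repair genes, which recognise mispaired bases after replication and have them replaced, MSH3 and MLH3 were higher in LoVo and PMS1 was higher in HCT116. MSH3, which recognises loops of unpaired bases, measured 4.14, 2.42 and 3.83 CPM in the libraries of HCT116 and 29.3, 33.4 and 31.1 CPM in the libraries of LoVo. Every LoVo library was several times above every HCT116 library (log2 fold change 3.17 ± 0.14, edgeR adjusted p = 9.34e-16). MLH3, a partner in the step after recognition, measured 16.3, 15.5 and 16 CPM in the libraries of HCT116 and 49.3, 47.2 and 46.6 CPM in the libraries of LoVo, again without overlap (log2 fold change 1.58 ± 0.082, edgeR adjusted p = 3.5e-08).

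PMS1, of the same family as MLH3, measured 45.8, 54.3 and 51.3 CPM in the libraries of HCT116 and 18.8, 22 and 20.6 CPM in the libraries of LoVo (log2 fold change -1.30 ± 0.086, edgeR adjusted p = 0.000521). PMS2 (34.8 ± 1.87 against 52.9 ± 3.57 CPM), MSH6 (133 ± 3.28 against 102 ± 1.66 CPM), PCNA, EXO1, MSH4 and MSH5 were not past 2-fold. Among genes that often carry repeat-tract mutations in unstable tumours, 2 of 19 were higher in LoVo, among them MSH3, and 4 in HCT116, B2M, TCF7L2, EPHB2 and RNF43. Over all tested genes 15.7% were higher in each line. TGFBR2 (55.2 ± 2.12 against 54.2 ± 1.81 CPM), BAX (56.4 ± 3.77 against 68.2 ± 0.348 CPM) and ACVR2A (13.4 ± 1.08 against 24.2 ± 1.76 CPM) were not past 2-fold. RNA levels do not show the sequence of these genes, which was not examined.

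Of 27 tested DNA break repair genes, 3 were higher in LoVo and 2 in HCT116, where 15.7% of all tested genes were higher in each line. Higher in LoVo were XRCC2 (18 ± 0.71 against 75.2 ± 5.45 CPM), BRCA1 (46.6 ± 1.4 against 112 ± 5.88 CPM) and MRE11 (28.9 ± 1.68 against 64 ± 5.07 CPM). XRCC4 (25.1 ± 1.18 against 8.71 ± 2.54 CPM) and XRCC6 (1063 ± 39.3 against 496 ± 4.57 CPM), which act in end joining, were higher in HCT116. CDKN1A, which arrests the cell cycle, stood at 305 ± 6.48 against 168 ± 4.99 CPM and was not past 2-fold. The apoptosis genes BBC3 (25.8 ± 0.275 against 69.5 ± 6.69 CPM) and FAS (11.4 ± 1.76 against 29.6 ± 3.19 CPM) were higher in LoVo, and RRM2B, a subunit of the enzyme that makes deoxynucleotides (106 ± 9.23 against 45.5 ± 5.1 CPM), in HCT116.

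Receptor tyrosine kinases, which pass growth factor signals into the RAS pathway, were more often higher in HCT116. Of 30 tested, 10 were higher in HCT116 and 2 in LoVo, with a median of -0.57. RET, the receptor of glia-derived growth factors, measured 31.4, 31.4 and 29.3 CPM in the libraries of HCT116 and 0.259, 0.453 and 0.202 CPM in the libraries of LoVo, a log2 fold change of -6.61 ± 0.20 (edgeR adjusted p = 2.02e-21). FGFR2 (42.7 ± 3.46 against 2.12 ± 0.129 CPM), FGFR3 (88.5 ± 5.98 against 30.6 ± 1.71 CPM), PTK7 (235 ± 8.02 against 14.2 ± 2.14 CPM), ROR2 (35.5 ± 0.453 against 3.67 ± 0.54 CPM), AXL and 3 ephrin receptors were among the others. ERBB3, the kinase-impaired partner of ERBB2, was higher in LoVo at 51.7, 48.9 and 47.9 CPM in the libraries of HCT116 and 285, 273 and 271 CPM in the libraries of LoVo (log2 fold change 2.48 ± 0.057, edgeR adjusted p = 8.17e-22), as was EPHA1 (59.2 ± 3.14 against 237 ± 9.25 CPM). EGFR (152 ± 5.01 against 305 ± 13.1 CPM), MET (345 ± 19.2 against 510.0 ± 7.52 CPM) and ERBB2 (121 ± 1.6 against 168 ± 12.6 CPM) were expressed in both lines and were not past 2-fold.

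The ligands were mixed. AREG, amphiregulin, an EGFR ligand, stood at 569.8 ± 17.2 against 128 ± 4.2 CPM, IGF2 at 12.1 ± 1.45 against 0.699 ± 0.26 CPM and FGF19, a gut hormone, at 26.1 ± 0.169 against 0.0225 ± 0.0389 CPM, all higher in HCT116. FGF2 (7.52 ± 0.962 against 54 ± 2.52 CPM), BTC (2.79 ± 0.25 against 21.2 ± 2.02 CPM) and FGF9 (4.36 ± 1.11 against 17.1 ± 1.18 CPM) were higher in LoVo. Among IGF binding proteins, IGFBP2 (132 ± 4.18 against 0.282 ± 0.26 CPM) and IGFBP5 were higher in HCT116 and IGFBP3, IGFBP4 and IGFBP6 (18.7 ± 2.12 against 80.2 ± 6.37 CPM) in LoVo.

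Most listed genes of the kind that responds to ERK within minutes were higher in HCT116. Of 28 immediate early genes, 16 were higher in HCT116 and 1 in LoVo, FOSL2 (82.8 ± 2.49 against 184 ± 15.8 CPM), with a median of -1.31. EGR1 measured 510.2, 418 and 424 CPM in the libraries of HCT116 and 82.5, 64.4 and 72.7 CPM in the libraries of LoVo, a log2 fold change of -2.62 ± 0.076 (edgeR adjusted p = 1.21e-19), and FOS measured 274, 242 and 258 CPM in the libraries of HCT116 and 28.3, 21.6 and 22.2 CPM in the libraries of LoVo, a log2 fold change of -3.42 ± 0.076 (edgeR adjusted p = 7.13e-24). No LoVo library reached an HCT116 library in either. FOSB (124 ± 8.82 against 8.18 ± 2.11 CPM), NR4A2 (39.1 ± 4.48 against 7.78 ± 0.55 CPM), KLF10 (161 ± 5.52 against 25.3 ± 2.35 CPM), JUNB (128 ± 2.79 against 42.7 ± 1.12 CPM) and EGR3 (13.2 ± 1.28 against 0.0656 ± 0.0648 CPM) were higher in HCT116, while JUN, JUND, ATF3, KLF6 and SRF were not past 2-fold.

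The slower ERK feedback genes were divided. DUSP6 (170.0 ± 5.52 against 44.4 ± 1.53 CPM) and SPRY4 (233 ± 4.14 against 58.6 ± 1.86 CPM) were higher in HCT116, and SPRY1 (7.25 ± 1.12 against 29.9 ± 1.07 CPM) and SPRY2 (10.7 ± 1.52 against 63.9 ± 1.08 CPM) in LoVo. BRAF, ETV4, ETV5 and FOSL1 were not past 2-fold, and in all 5 of 24 genes were higher in HCT116 and 2 in LoVo.

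In the TGF-beta and BMP pathways, 6 of 32 tested genes were higher in LoVo and 5 in HCT116, shares near the 15.7% of all tested genes in each direction. Higher in LoVo were 3 BMP ligands, a receptor and an inhibitor. BMP4 stood at 393 ± 4.19 against 1167 ± 24.1 CPM, BMP2 at 2.04 ± 0.657 against 27.3 ± 1.49 CPM, BMP7 at 18.7 ± 2.1 against 56.4 ± 1.26 CPM, BMPR1B at 0.107 ± 0.136 against 19.5 ± 1.3 CPM and the inhibitor SMAD7 at 15.5 ± 0.768 against 82.3 ± 4.74 CPM. ID1, a gene that BMP signals induce, was higher in HCT116 and measured 459.8, 447 and 492 CPM in the libraries of HCT116 and 127, 120.5 and 132 CPM in the libraries of LoVo, without overlap (log2 fold change -1.88 ± 0.056, edgeR adjusted p = 3.39e-16), and ID2, also higher in HCT116, stood at 211 ± 13.9 against 64.5 ± 3.2 CPM. SMAD2, SMAD3, SMAD4 and the TGF-beta receptors were not past 2-fold.

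Notch and Hedgehog genes formed complementary sets, with 8 of 26 higher in LoVo and 8 in HCT116. The receptor NOTCH3 (122 ± 9.04 against 4.85 ± 0.631 CPM), its ligands JAG2 (167 ± 0.703 against 51.6 ± 1.8 CPM) and DLL1 (12.8 ± 0.54 against 2.1 ± 0.363 CPM), and the Notch-modifying MFNG and LFNG were higher in HCT116, while the Notch target HES1 (22.5 ± 3.09 against 53.5 ± 2.04 CPM) was higher in LoVo. The Hedgehog ligands SHH (0.712 ± 0.383 against 7.27 ± 0.71 CPM) and IHH (0.423 ± 0.43 against 6.4 ± 1.02 CPM), the receptor PTCH1 (24.2 ± 1.93 against 85.5 ± 3.39 CPM), and GLI2 and GLI3 (0.02 ± 0.0346 against 24.5 ± 1.15 CPM) were higher in LoVo, whereas SMO (33.8 ± 2.51 against 10.7 ± 0.782 CPM) and GLI1 (10.7 ± 0.866 against 2.3 ± 0.561 CPM) were higher in HCT116. Of 33 guidance genes, 11 were higher in HCT116, led by SEMA6B (183 ± 15.8 against 7.66 ± 0.878 CPM), NTN1 (40.3 ± 1.76 against 4.44 ± 0.0824 CPM) and SEMA3F (47.2 ± 0.538 against 6.43 ± 0.434 CPM), and 5 in LoVo, led by PLXNA2 (7.45 ± 0.546 against 103 ± 6.46 CPM) and NRP1 (2.92 ± 0.183 against 22.8 ± 1.48 CPM).

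Interferon-stimulated genes formed one of the most one-sided lists. These genes act against viruses and are switched on by interferon through STAT2 and IRF9, among other factors. Of 40 tested, 27 were higher in LoVo and 2 in HCT116, with a median of 1.89. MX1 measured 0.84, 1.39 and 0.778 CPM in the libraries of HCT116 and 87.8, 85 and 86 CPM in the libraries of LoVo, a log2 fold change of 6.41 ± 0.13 (edgeR adjusted p = 2.09e-26). BST2, tetherin, measured 0.36, 0.666 and 1.1 CPM in the libraries of HCT116 and 131, 156 and 154 CPM in the libraries of LoVo, a log2 fold change of 7.69 ± 0.14 (edgeR adjusted p = 1.29e-27). IFIT3 (0.756 ± 0.207 against 44.8 ± 1.69 CPM), OAS1 (0.496 ± 0.0825 against 27.9 ± 1.05 CPM), OAS3 (72.8 ± 1.64 against 226 ± 13.6 CPM), IFI44, GBP1 (0.0202 ± 0.035 against 9.17 ± 0.473 CPM) and PARP14 (27.9 ± 2.48 against 138 ± 5.24 CPM) were higher in LoVo.

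The exceptions were HERC5 (20.1 ± 1.39 against 1.56 ± 0.605 CPM) and IFITM2 (14.8 ± 2.98 against 2.88 ± 1.15 CPM), which were higher in HCT116. ISG15 (44.4 ± 5.13 against 56.8 ± 2.65 CPM), STAT2, IRF7 and IRF9 were not past 2-fold. The DNA sensor CGAS had 1 count in HCT116 and stood at 0.0216 ± 0.0375 against 25.5 ± 0.841 CPM, and STING1, which acts after it, at 16.2 ± 1.96 against 62.6 ± 4.46 CPM. IFIH1 and RIGI, sensors of viral RNA, were higher in LoVo, and MAVS (348 ± 2.49 against 245 ± 11 CPM), which they signal through, was not past 2-fold.

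Targets of NF-kB, the inflammatory transcription factor, had 15 of 25 tested genes higher in LoVo and 3 in HCT116, with a median of 1.80. IL32 (0.142 ± 0.067 against 49.2 ± 3.89 CPM), CXCL1 (0.771 ± 0.399 against 24.4 ± 1.39 CPM), CXCL3 (0.734 ± 0.472 against 19.8 ± 1.16 CPM), NOS2 (0.539 ± 0.154 against 14.4 ± 0.751 CPM) and the inhibitor NFKBIA (19 ± 1.45 against 73.2 ± 5.15 CPM) were higher in LoVo. TNFAIP2 (78.5 ± 6.68 against 4.2 ± 0.672 CPM), ICAM1 (10.5 ± 1.44 against 1.69 ± 0.577 CPM) and NFKB2 (185 ± 4.87 against 79.3 ± 1.25 CPM) were higher in HCT116, against NFKB1 (42.3 ± 1.71 against 94.7 ± 1.86 CPM) in LoVo. Among innate sensors and complement genes, C4BPB (0.0432 ± 0.0749 against 87.3 ± 4.23 CPM), CD55 (40.7 ± 1.56 against 211 ± 3.51 CPM) and NLRP1 (21.7 ± 0.844 against 99.1 ± 1.99 CPM) were higher in LoVo, and NOD2 (9.65 ± 0.908 against 0.482 ± 0.264 CPM) and CLU (176 ± 2.8 against 69.6 ± 4.39 CPM) in HCT116.

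Antigen presentation genes were split between its parts. Class I molecules present peptides, cut by the proteasome, on a heavy chain paired with B2M. B2M measured 235, 246 and 244 CPM in the libraries of HCT116 and 33.5, 35.1 and 32.2 CPM in the libraries of LoVo. It was lower in every LoVo library, with a log2 fold change of -2.84 ± 0.06 (edgeR adjusted p = 9.96e-24). HLA-C (260.3 ± 5.3 against 95.1 ± 7.94 CPM) and HLA-B (97.4 ± 7.35 against 43.6 ± 3.94 CPM) were also higher in HCT116, while TAP1 and TAP2 were not past 2-fold. PSMB8, an immunoproteasome subunit, measured 0.48, 0.242 and 0.26 CPM in the libraries of HCT116 and 45.3, 51 and 51.8 CPM in the libraries of LoVo, a log2 fold change of 7.19 ± 0.17 (edgeR adjusted p = 4.9e-24) toward LoVo. PSMB9 (4.82 ± 1.69 against 29.9 ± 2.74 CPM), PSMB10, TAPBP (56.1 ± 4.59 against 136 ± 2.15 CPM), ERAP1 and ERAP2 were higher in LoVo too. HLA genes resemble each other and their counts are uncertain to that extent.

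Class II genes were low in both lines. Of 13 tested, 6 were higher in LoVo, among them the activator CIITA (1.47 ± 0.66 against 9.84 ± 1.46 CPM) and the chaperone CD74 (0.716 ± 0.23 against 15.3 ± 1.4 CPM), and HLA-DMB was higher in HCT116. HLA-DRA (3.33 ± 0.188 against 3.65 ± 0.37 CPM) was not past 2-fold.

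Glycolysis and hypoxia genes past 2-fold were nearly all higher in HCT116, but most of the list was not past it. Of 35 tested, 13 were higher in HCT116 and 1 in LoVo, with a median of -0.73. NDRG1, a stress and hypoxia gene, measured 390.5, 377 and 367 CPM in the libraries of HCT116 and 28.4, 26 and 25.6 CPM in the libraries of LoVo, a log2 fold change of -3.83 ± 0.063 (edgeR adjusted p = 9.64e-28), and SLC16A3, which exports lactate, measured 402, 396 and 409 CPM in the libraries of HCT116 and 28.3, 29.1 and 30.7 CPM in the libraries of LoVo, a log2 fold change of -3.78 ± 0.061 (edgeR adjusted p = 6.69e-28). The lines did not overlap in either. HK1 (226 ± 6.04 against 41.4 ± 3.41 CPM), ENO1 (3450.0 ± 41.9 against 1514 ± 47.3 CPM), PGK1 (851 ± 28.3 against 386 ± 8.9 CPM), PFKP (426 ± 8.63 against 173 ± 13.5 CPM), ALDOC (66.1 ± 4.83 against 4.4 ± 1.24 CPM) and the glucose transporter gene SLC2A1 (538 ± 3.37 against 229 ± 5.01 CPM) were also higher in HCT116. SLC2A3, another glucose transporter gene, was higher in LoVo at 7.61 ± 0.446 against 75.4 ± 3.51 CPM. VEGFA (51.6 ± 2.04 against 108 ± 8.8 CPM), GAPDH, PKM, LDHA and HK2 were not past 2-fold, and ALDOA had few counts, under 3 CPM in both lines, in a locus with overlapping annotation.

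Of 32 tested fatty acid and lipid genes, 3 were higher in LoVo and 9 in HCT116, with a median of -0.21. SCD, which desaturates fatty acids, measured 1606, 1579 and 1571 CPM in the libraries of HCT116 and 303, 294 and 298 CPM in the libraries of LoVo, a log2 fold change of -2.41 ± 0.053 (edgeR adjusted p = 2.31e-22). PLIN2 (28.6 ± 2.82 against 0.744 ± 0.0855 CPM) and PLIN3 (278 ± 8.17 against 62.5 ± 5.74 CPM), which coat lipid droplets, and 4 acyl-CoA synthetase genes, ACSL1, ACSL3, ACSL4 and ACSL5, were among those higher in HCT116, while FASN (2321 ± 163 against 1273 ± 77.3 CPM) was not past 2-fold. CD36, a fatty acid transporter, stood at 0.145 ± 0.0428 against 35.4 ± 2.56 CPM. Of 24 cholesterol synthesis genes, 3 were higher in LoVo, among them HMGCS1 (81 ± 1.05 against 262 ± 9.01 CPM) and MVK (29.3 ± 2.39 against 66.9 ± 4.07 CPM), and none in HCT116, with 18 called higher in LoVo and 5 in HCT116 by edgeR against no difference, where 39.0% and 39.9% of all tested genes were so called.

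Amino acid and one-carbon genes, many of them targets of the stress factor ATF4, differed toward LoVo where they were past 2-fold. Of 31 tested, 10 were higher in LoVo and 0 in HCT116, and in the edgeR test against no difference 26 were called higher in LoVo and 2 in HCT116, where 39.0% and 39.9% of all tested genes were so called. ASS1, which makes arginine, stood at 99.9 ± 4.27 against 409 ± 9.42 CPM, TRIB3 at 42.2 ± 1.02 against 203 ± 8.65 CPM, PSAT1 at 114 ± 1.76 against 357 ± 4.82 CPM, PHGDH at 197 ± 5.98 against 500.1 ± 10.1 CPM, CHAC1 at 4.49 ± 0.524 against 32 ± 1.32 CPM and the cystine transporter gene SLC7A11 at 27.9 ± 0.554 against 100.1 ± 6.25 CPM. BCAT1, which starts the breakdown of branched-chain amino acids, stood at 0 ± 0 against 114 ± 3.31 CPM, at least 1840-fold higher in LoVo. ATF4 itself (395 ± 13.2 against 603 ± 15.8 CPM) was not past 2-fold, and its partner DDIT3 (2.98 ± 0.786 against 14.8 ± 0.916 CPM) was higher in LoVo.

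Drug-metabolising enzymes and pumps were mostly higher in LoVo. Of 27 tested genes for oxidation, conjugation and export, 16 were higher in LoVo and 2 in HCT116, with a median of 1.75. The efflux pump ABCG2 measured 3.96, 4.06 and 5.58 CPM in the libraries of HCT116 and 223, 236 and 228 CPM in the libraries of LoVo, a log2 fold change of 5.66 ± 0.087 (edgeR adjusted p = 3.37e-29), and ABCB1 stood at 8.34 ± 1.03 against 170.0 ± 5.2 CPM. CYP3A5 (5.62 ± 1.76 against 69.6 ± 4.22 CPM), CYP2J2 (2.93 ± 0.595 against 47.4 ± 1.81 CPM), CYP2S1 (30.4 ± 2.67 against 129 ± 2.03 CPM) and UGT1A6 (0.0649 ± 0.112 against 21.6 ± 0.779 CPM) were higher in LoVo. UGT1A genes share exons, so reads may be divided among them. ABCC2, another pump, measured 249, 238 and 231 CPM in the libraries of HCT116 and 14.8, 17 and 14.3 CPM in the libraries of LoVo, the reverse order (log2 fold change -3.96 ± 0.07, edgeR adjusted p = 6.47e-27).

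Genes against aldehydes and oxidants were mixed. ALDH1A1 (0.0806 ± 0.0926 against 68.9 ± 0.893 CPM), ALDH1A3 (127 ± 5.65 against 503 ± 16.7 CPM), ALDH2 (22.1 ± 1.41 against 135 ± 2.1 CPM) and GPX2 (0.394 ± 0.142 against 25 ± 2.79 CPM) were higher in LoVo. NQO1, a quinone reductase, measured 419.9, 414 and 456 CPM in the libraries of HCT116 and 38.9, 35.3 and 37.1 CPM in the libraries of LoVo and was higher in HCT116 (log2 fold change -3.54 ± 0.063, edgeR adjusted p = 1.22e-26), as were OSGIN1 and AKR1B1 (61.6 ± 6.42 against 0.0216 ± 0.0374 CPM). NFE2L2 (87.8 ± 5.95 against 90.5 ± 1.62 CPM), which controls many of these genes, GCLM and TXNRD1 were not past 2-fold.

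Most of the listed heat shock chaperones were higher in HCT116, and none in LoVo. Of 18 tested, 10 were higher in HCT116 and 0 in LoVo, with a median of -1.24. HSP90AA1, the inducible HSP90, measured 3814, 3965 and 3793 CPM in the libraries of HCT116 and 679, 712 and 687 CPM in the libraries of LoVo, a log2 fold change of -2.48 ± 0.053 (edgeR adjusted p = 9.32e-23), and the groups lay far apart. HSP90AB1 (5711 ± 134 against 2338 ± 20.1 CPM), HSPH1 (254 ± 9.41 against 84.7 ± 4.45 CPM) and HSPB1 (258 ± 17.1 against 42.2 ± 3.39 CPM) were higher in HCT116, but HSPA8 (1514 ± 18.1 against 1557 ± 11.9 CPM) and the mitochondrial HSPD1 (1600.0 ± 45.1 against 1610.0 ± 54.5 CPM) were not past 2-fold. In the endoplasmic reticulum, HSPA5 (1033 ± 18.1 against 466 ± 12.6 CPM) was the chaperone higher in HCT116. Metallothioneins differed gene by gene, MT2A (135 ± 21 against 6.73 ± 1.01 CPM) and MT1E higher in HCT116 and MT1A and MT1M in LoVo, and their sequences are near-identical.

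Cell cycle genes were mostly within 2-fold. In G1/S and replication genes, 2 of 40 were higher in HCT116, CDC6 (138 ± 5.53 against 62.4 ± 2.64 CPM) and PRIM2 (55.9 ± 0.183 against 21.8 ± 1.12 CPM), and POLA2 in LoVo, with a median of -0.40. In G2/M genes 4 of 38 were higher in HCT116, CDC20 (350.2 ± 20.4 against 144 ± 5.93 CPM), DLGAP5, BUB3 and BIRC5 (198 ± 7.37 against 90.6 ± 1.06 CPM), and FOXM1 (82.7 ± 8.4 against 199 ± 15.2 CPM) in LoVo, while 28 were called higher in HCT116 and 3 in LoVo by edgeR against no difference (39.9% and 39.0% of all tested genes). Among CDK regulators, CCND2 (0.183 ± 0.209 against 44.1 ± 2.59 CPM) and CDKN1B (37 ± 2.55 against 119 ± 2.38 CPM), which brakes CDK2, were higher in LoVo, as was CDKN2B, and CDKN1C (24.1 ± 0.66 against 1.42 ± 0.13 CPM) and CDKN2D in HCT116, whereas RB1 (56.6 ± 5.28 against 56 ± 0.503 CPM), CCND1 (365 ± 13.4 against 253 ± 9.11 CPM) and CDKN2A (17.6 ± 1.65 against 10 ± 0.333 CPM) were not past 2-fold.

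None of 36 ribosome biogenesis genes was past 2-fold in either direction. Against no difference edgeR called 6 higher in LoVo and 20 in HCT116, where 39.0% and 39.9% of all tested genes were so called. Of 49 ribosomal protein genes, RPL39L (0 ± 0 against 19.1 ± 3.02 CPM) and RPL37 (382 ± 48.9 against 894 ± 102 CPM) were higher in LoVo. Pseudogene copies of these genes make their counts uncertain. Nuclear respiratory chain genes had a median of -0.06, with SDHA higher in LoVo and UQCRB (91.2 ± 13.8 against 39.6 ± 5.03 CPM) in HCT116. The 15 listed mitochondrial transcripts were all called higher in HCT116 against no difference, as were 39.9% of all tested genes. Of the 15, 4 were past 2-fold, against 15.7% of all tested genes. They summed to 77500 to 83900 CPM in HCT116 and 49000 to 53500 CPM in LoVo. In the MYC network, MNT (34.4 ± 0.875 against 105 ± 2.39 CPM) and MXD4 (51.2 ± 3.71 against 129.6 ± 8 CPM), repressors that compete with MYC for MAX, were higher in LoVo.

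Chromatin genes held a few large differences among many small ones. SMARCA1, an ATPase of nucleosome sliding complexes, measured 107, 111 and 97.7 CPM in the libraries of HCT116 and 0.13, 0.194 and 0.0674 CPM in the libraries of LoVo, a log2 fold change of -9.56 ± 0.17 (edgeR adjusted p = 5.29e-28). CHD5 (53.1 ± 0.89 against 2.67 ± 0.294 CPM) and the histone variant gene MACROH2A2 (67.7 ± 2.74 against 0.765 ± 0.325 CPM) were higher in HCT116, and BCL11A (4.33 ± 1 against 24.9 ± 3.5 CPM) and CHD3 (164 ± 4.83 against 419.9 ± 10.3 CPM) in LoVo. DNMT3B, which sets new DNA methylation, measured 77.8, 80.9 and 74.3 CPM in the libraries of HCT116 and 13.9, 16.5 and 13.6 CPM in the libraries of LoVo (log2 fold change -2.40 ± 0.082, edgeR adjusted p = 8.03e-17), opposite to DNMT3A (47.5 ± 1.66 against 103 ± 1.69 CPM). DNMT1 (475 ± 18.8 against 334 ± 28 CPM) and EZH2 (142 ± 4.72 against 143 ± 3.24 CPM) were not past 2-fold, and JARID2 (118 ± 5.74 against 34.9 ± 2.77 CPM), CBX2 and TET1 were higher in HCT116. H3-3B (974 ± 82.2 against 328 ± 15.1 CPM) was higher in HCT116, with the caution that histone genes are near-identical.

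Of 22 genes that write, erase or read the RNA mark m6A, VIRMA (162 ± 6.69 against 50.7 ± 3.41 CPM), a subunit of the writer complex, was higher in HCT116 and none in LoVo, with a median of -0.46. METTL3 (78.5 ± 2.2 against 83.5 ± 5.37 CPM), METTL14 and RBM15 (56.7 ± 4.08 against 29.8 ± 0.491 CPM), named in the series' title, were not past 2-fold. SLERT arises from introns of TBRG4 and has snoRNA ends, SNORA5A and SNORA5C. TBRG4 stood at 169 ± 11 against 219.8 ± 2.81 CPM (log2 fold change 0.38 ± 0.054), and the snoRNAs had too few counts to test, 0 and 12 for SNORA5A and 16 and 37 for SNORA5C over the 3 libraries of HCT116 and LoVo. DDX21, the nucleolar helicase that binds SLERT, stood at 364 ± 12.4 against 365 ± 5.97 CPM (edgeR adjusted p = 0.914 against no difference). HUNK, a kinase gene, was low in both lines and higher in LoVo at 0.42, 0.121 and 0.13 CPM in the libraries of HCT116 and 1.68, 2.52 and 1.95 CPM in the libraries of LoVo (log2 fold change 3.14 ± 0.46, edgeR adjusted p = 3.64e-05).

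**Figure D3:**
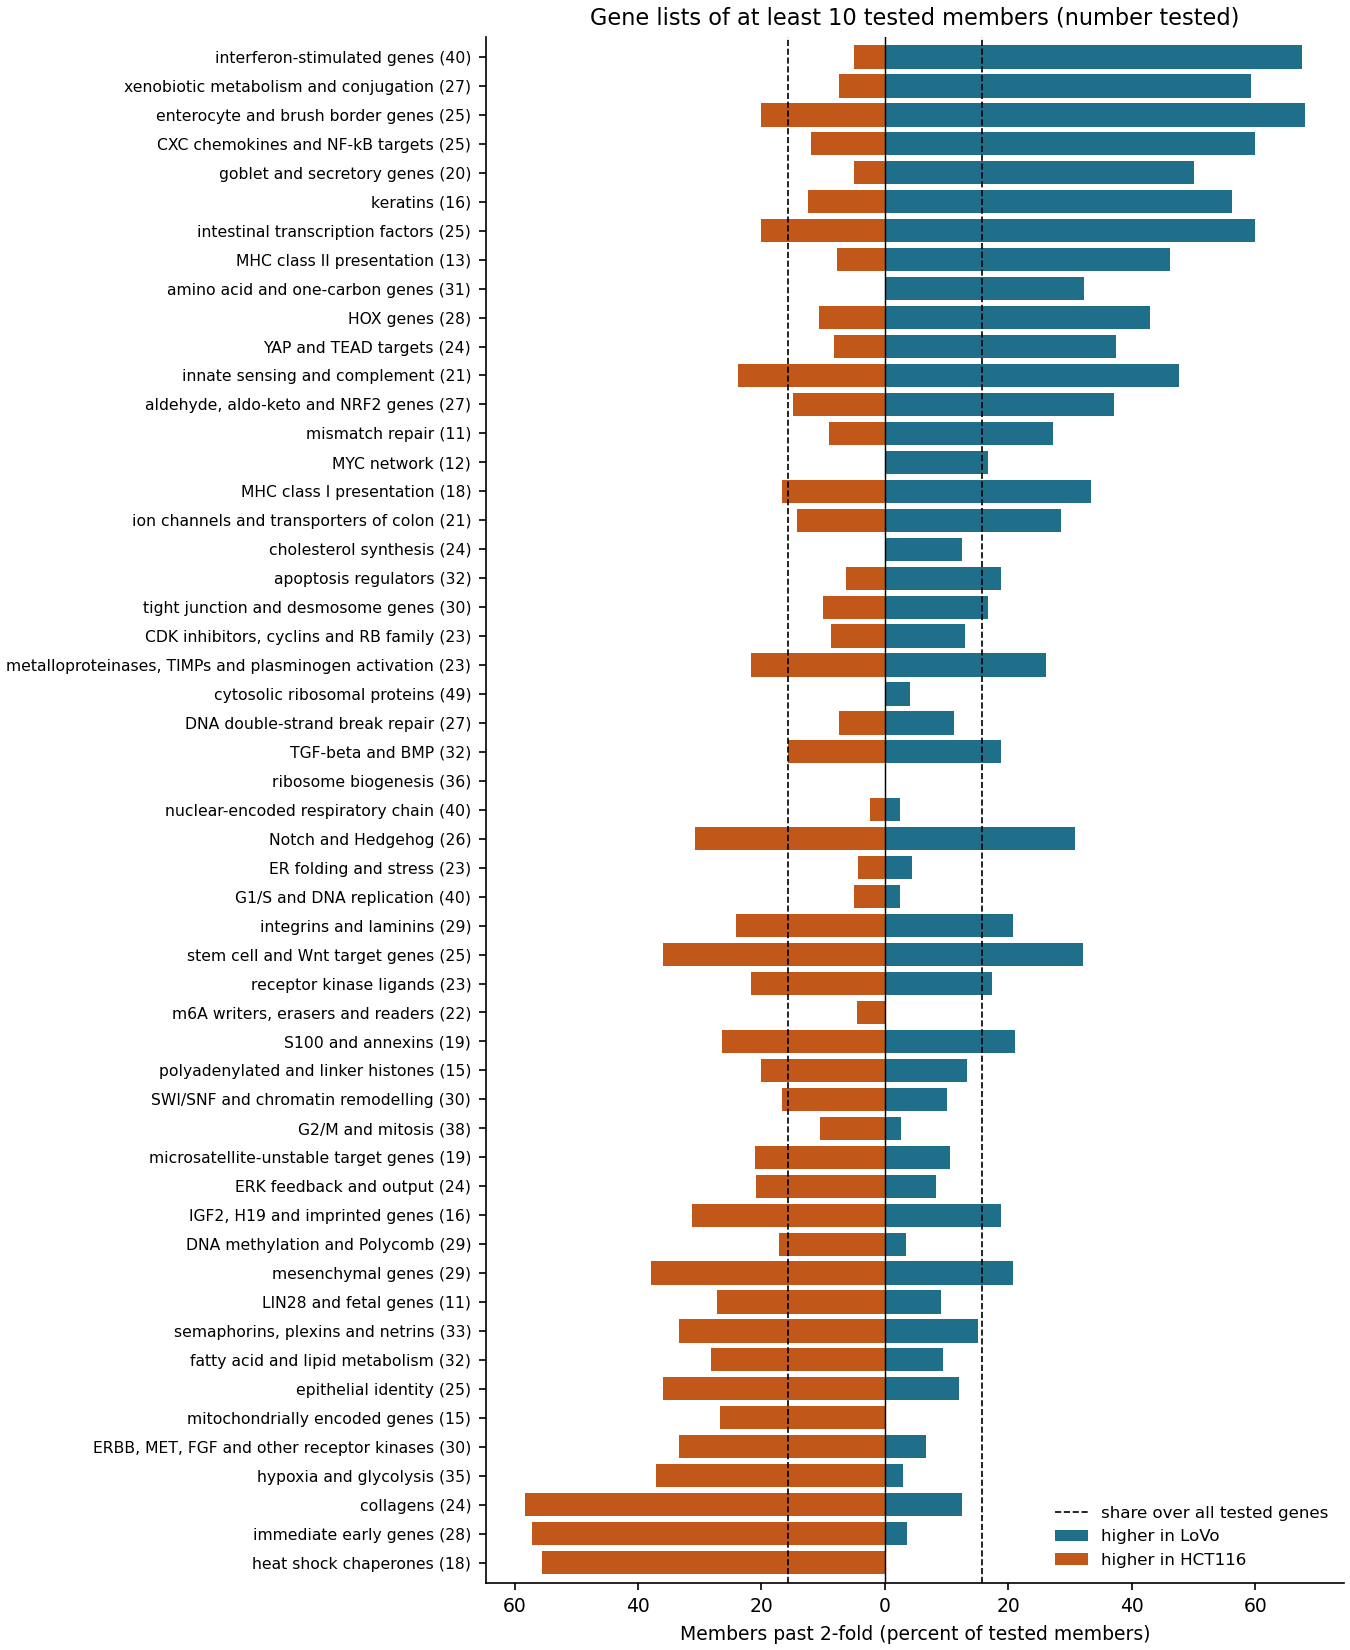
For gene lists of at least 10 tested genes, the bar to the right gives the percentage of tested genes past 2-fold higher in LoVo and the bar to the left the percentage higher in HCT116, with dashed lines at the 15.7% of all tested genes on each side. Enterocyte, interferon-stimulated, intestinal factor, NF-kB target and xenobiotic genes reach far to the right, and collagens, immediate early genes and heat shock chaperones far to the left.

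Some genes were read in 1 line only, taken as at most 3 counts over the 3 libraries of a line and a mean of at least 5 CPM in the other, with each library above 1 CPM. There were 133 such genes in LoVo and 171 in HCT116. NNT, which makes NADPH in mitochondria, at chr5:43602692-43707405 (GRCh38, GENCODE v29), measured 0 CPM in all 3 libraries of HCT116 and 193, 192 and 194 CPM in the libraries of LoVo, at least 3130-fold higher in LoVo. Its antisense neighbour NNT-AS1 had 1 count in HCT116 and 909 in LoVo. TXNIP, a brake on glucose uptake, stood at 0 ± 0 against 62.1 ± 0.668 CPM, at least 1010-fold higher. TLE4 (at least 743-fold), ROBO2 (at least 790-fold) and BICC1 (at least 897-fold) were read in LoVo only as well. TMPRSS2, a surface protease gene, had a count ratio of 4340 (95% interval 779 to 172000) toward LoVo, and APOL1 one of 2080 (95% interval 710 to 10100).

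In HCT116 only, NTSR1, the neurotensin receptor, measured 346, 308 and 310.4 CPM in the libraries of HCT116 and 0, 0 and 0.135 CPM in the libraries of LoVo, a count ratio of 7360 (95% interval 2040 to 60800). The cancer-testis gene MAGEB2 measured 201, 207 and 206 CPM in the libraries of HCT116 and 0, 0.0648 and 0 CPM in the libraries of LoVo, a ratio of 9360 (95% interval 1680 to 370000), and MAGEA3 (113 ± 2.35 against 2.81 ± 0.85 CPM) and PRAME (73.5 ± 3.74 against 1.27 ± 0.263 CPM) were also higher in HCT116, although MAGEA copies are near-identical. PIWIL1, a germ-cell gene, was read in LoVo only at 0 ± 0 against 6.91 ± 0.323 CPM. CHST15, GTSF1 and CACNA1H had no count in LoVo and were at least 1910-fold, 1790-fold and 1670-fold higher in HCT116. ANTXR1, LMX1B, LPAR3 and LIFR had no count in LoVo either, and were at least 819-fold, 761-fold, 687-fold and 621-fold higher in HCT116. AKAP12 and THBS1, chosen after their values were seen, also differed at a high level, AKAP12 at 4516 ± 152 against 28.4 ± 2.24 CPM and THBS1 at 18 ± 1.18 against 668 ± 20.2 CPM.

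**Figure D4:**
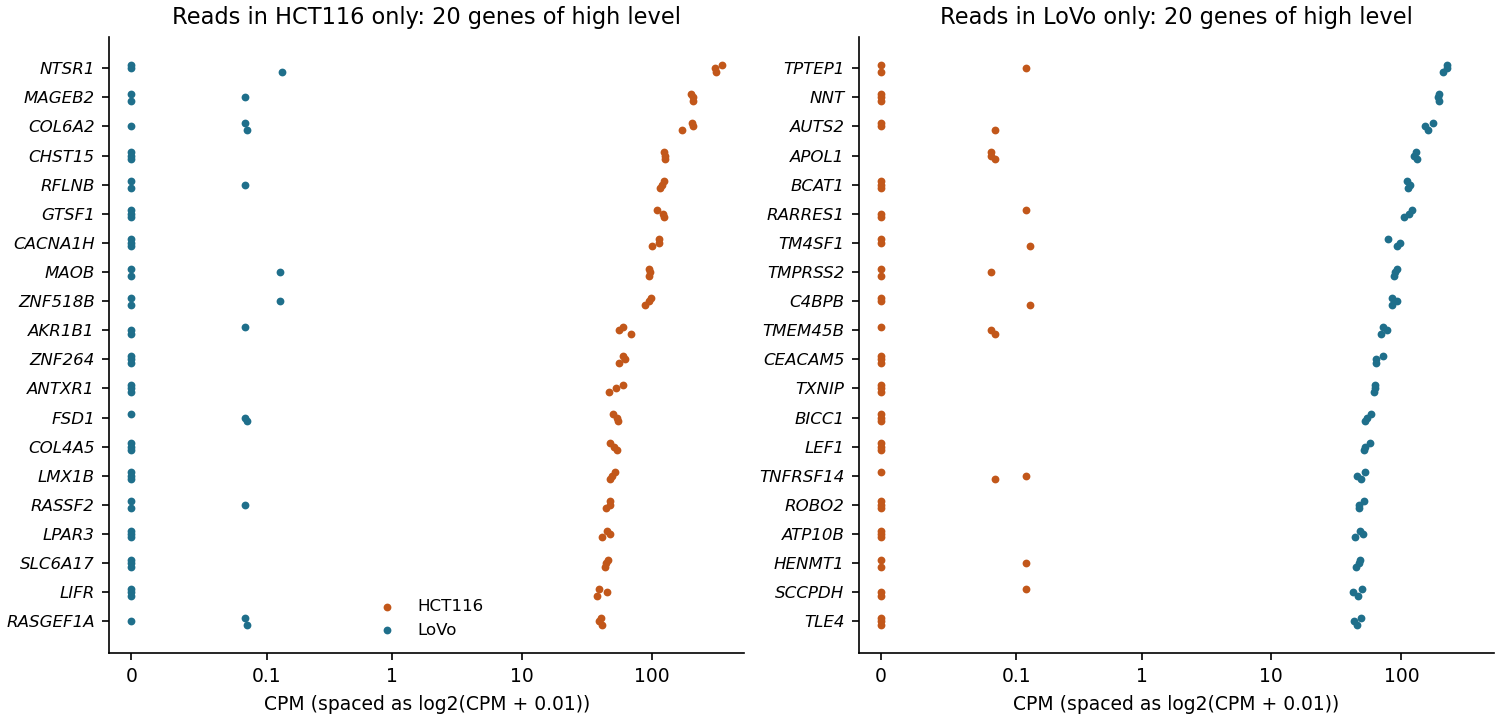
Points are libraries, for 20 genes of high mean level read in HCT116 only and 20 read in LoVo only, with the level in CPM on a logarithmic axis (spaced as log2(CPM + 0.01)). The 3 libraries of the expressing line lie close together, and those of the other line lie at or next to 0.

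Zinc-finger genes were frequent among those read in HCT116 only. Many genes with ZNF-type symbols lie in clusters on chromosome 19 and encode KRAB repressors of repeated DNA. Of the 171 genes, 20 had such symbols and 18 of these lay on chromosome 19, against 2 and 1 of the 133 read in LoVo only and 428 with such symbols among the 17143 genes tested. Chromosome 19 held 31 of the 171 genes and 9 of the 133, whatever their type, against 1148 of the 17143 genes tested. ZNF264, at chr19:57191500-57222846, measured 59.8, 61.8 and 56.3 CPM in the libraries of HCT116 and 0 CPM in all 3 libraries of LoVo, at least 905-fold higher in HCT116. Over all 172 tested zinc-finger genes of chromosome 19, 55 (32.0%) were higher in HCT116 and 20 (11.6%) in LoVo, with a median of -0.44. On other chromosomes the 256 tested had 34 (13.3%) and 32 (12.5%), with a median of 0.03, and the 819 other coding genes of chromosome 19 had 196 (23.9%) and 57 (6.96%). This grouping was chosen after values were seen. Some genes within 100 kb of each other were read in the same line only, such as ZNF550, ZNF416, ZNF530 and ZNF134, and KLK6 with KLK7, in HCT116, and CEACAM5 with CEACAM6, NNT with NNT-AS1, and APOL1 with APOL3 in LoVo. Related genes often lie together in the genome, and how often any tested genes lie this close was not set beside these examples.

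The promoters of such genes were compared for CG dinucleotides, which are the sites of DNA methylation in human DNA. Methylation was not measured. The ratio of observed to expected CG was taken in the 250 bases before the start, as the highest value where a gene had several RefSeq starts. It was at least 0.6 in 82.3% of tested genes with a promoter and in 87.3% of genes not past 2-fold. Of those higher in LoVo 67.1% reached it, and of those higher in HCT116 72.6%. The ratio was at least 0.6 in 67.0% of the 109 genes read in HCT116 only and 47.7% of the 86 read in LoVo only. Among the 16 chromosome 19 zinc-finger genes read in HCT116 only that had a promoter, the share was 93.8%. It was 79.5% among all 151 tested chromosome 19 zinc-finger genes with a promoter, so most of this family shares the trait. Promoters of NTSR1, ZNF264 and COL4A5, silent in LoVo, and of KRT20, low in HCT116, are shown because they span this range. NTSR1 lies at chr20:62708586-62708835, ZNF264 at chr19:57191250-57191499 and COL4A5 at chrX:108439588-108439837 on the plus strand, and KRT20 at chr17:40885243-40885492 on the minus strand (GRCh38.p14, RefSeq starts). Sequences run 5′ to 3′ along the gene, with every CG in capitals.
NTSR1: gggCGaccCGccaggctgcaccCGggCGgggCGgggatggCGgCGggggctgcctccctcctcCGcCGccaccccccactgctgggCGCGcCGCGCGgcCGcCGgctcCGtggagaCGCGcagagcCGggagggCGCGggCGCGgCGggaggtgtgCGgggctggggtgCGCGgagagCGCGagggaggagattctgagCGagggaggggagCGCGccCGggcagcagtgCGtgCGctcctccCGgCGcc
ZNF264: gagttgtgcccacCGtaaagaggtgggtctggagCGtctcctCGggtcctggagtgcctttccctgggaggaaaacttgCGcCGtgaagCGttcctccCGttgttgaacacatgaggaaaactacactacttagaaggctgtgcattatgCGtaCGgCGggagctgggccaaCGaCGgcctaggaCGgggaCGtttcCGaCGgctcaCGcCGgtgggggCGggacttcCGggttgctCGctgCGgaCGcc
COL4A5: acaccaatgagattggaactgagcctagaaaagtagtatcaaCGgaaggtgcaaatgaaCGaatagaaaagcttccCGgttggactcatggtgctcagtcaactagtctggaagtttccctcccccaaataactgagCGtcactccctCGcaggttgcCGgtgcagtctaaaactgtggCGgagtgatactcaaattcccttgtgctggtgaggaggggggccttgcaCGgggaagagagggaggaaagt
KRT20: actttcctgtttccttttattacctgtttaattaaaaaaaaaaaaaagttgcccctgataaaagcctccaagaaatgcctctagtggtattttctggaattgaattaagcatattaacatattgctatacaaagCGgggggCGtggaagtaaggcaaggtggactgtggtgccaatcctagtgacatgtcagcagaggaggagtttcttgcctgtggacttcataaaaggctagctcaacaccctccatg
NTSR1 holds 38 CG in 250 bases, a ratio of 0.93, and ZNF264 23 CG, a ratio of 0.98. COL4A5 has 8 CG (0.50) and KRT20 2 CG (0.19). KRT20 is not among the genes read in 1 line only. By the shares of 67.0% and 47.7% above, genes read in 1 line only had both CG-rich and CG-poor promoters.

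Position on the chromosomes moved with the differences. On chromosome 12 the median log2 fold change of tested genes was 0.55, with 27.1% higher in LoVo and 10.9% in HCT116, and on chromosome 7 it was 0.55 (26.0% and 9.95%). On chromosome 21 it was 0.30 (22.9% and 11.4%). On chromosome 8 the median was -0.47 (9.82% and 25.0%), the lowest of all, followed by -0.25 on chromosome 10 (14.2% and 21.3%), -0.22 on chromosome 4 (15.6% and 18.4%), -0.20 on chromosome 17 (12.9% and 17.6%), -0.19 on chromosome X (11.2% and 23.8%) and -0.17 on chromosome 19 (9.67% and 23.9%). The medians of chromosomes 12, 7 and 8 were 0.48, 0.43 and -0.47 among genes with an average log2 CPM of at least 3, whose median over all chromosomes was -0.07. In windows of 10 Mb with at least 20 tested genes, the highest median was 1.67 on chromosome 5 from 40 to 50 Mb, which holds NNT, HMGCS1 and RPL37, with 19 of 28 genes higher in LoVo and 2 in HCT116. The window from 0 to 10 Mb on the same chromosome had 1.16. The lowest medians were -1.09 on chromosome 8 from 120 to 130 Mb, over 41 genes, and -0.99 from 80 to 90 Mb. MYC lies in the window from 120 to 130 Mb and, at a log2 fold change of 0.16 ± 0.056, did not share its direction. Copy number was not measured.

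**Figure D5:**
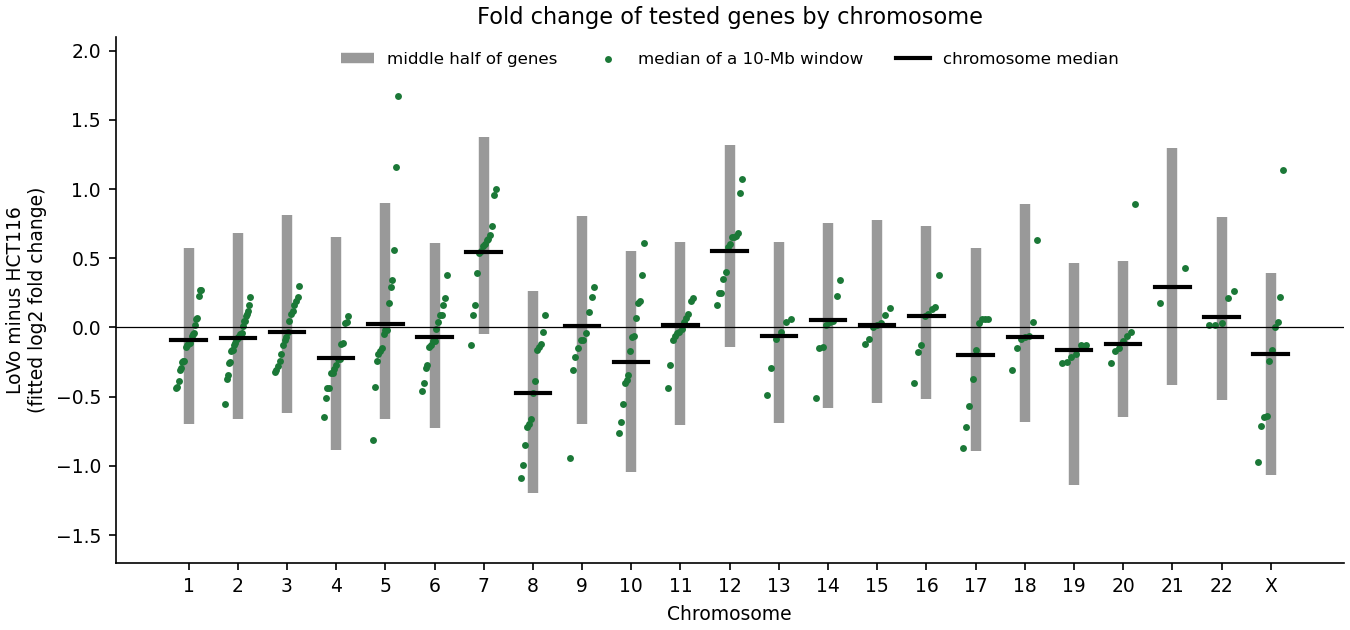
For each chromosome the black line is the median log2 fold change, LoVo minus HCT116, of its tested genes, the grey bar spans the quartiles, and green dots are medians of 10-Mb windows ordered by value. Chromosomes 7 and 12 lie above 0.5, chromosome 8 lies lowest at -0.47, and the highest window belongs to chromosome 5.

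Among the genes named above, 11 lost the 2-fold call when 1 library was left out, without a change of direction. All but the sparsely counted SLC5A1 lay close to 2-fold. The log2 fold change of HLA-B was -1.16 with all libraries, -1.12 without LoVo library 1 and -1.12 without LoVo library 2. For XRCC6, a value of -1.10 became -1.09 without HCT116 2 and -1.10 without LoVo 3. The log2 fold change of MRE11 was 1.15 with all libraries, 1.09 without HCT116 1 and 1.08 without LoVo 2. DNMT3A went from 1.12 to 1.12 without HCT116 1, 1.08 without HCT116 3 and 1.11 without LoVo 3. For CDKN2B, a value of 1.16 became 1.16 without HCT116 2, 1.08 without HCT116 3, 1.15 without LoVo 1 and 1.15 without LoVo 3. The log2 fold change of CDKN2D was -1.32 with all libraries and -1.23 without LoVo 1. UQCRB went from -1.20 to -1.09 without HCT116 3 and -1.10 without LoVo 1. For FOSL2, a value of 1.15 became 1.10 without LoVo 1. The log2 fold change of HES1 was 1.25 with all libraries and 1.12 without HCT116 3. MVK went from 1.19 to 1.12 without HCT116 1. For SLC5A1, a value of -2.16 became -2.17 without HCT116 1, -2.06 without HCT116 2, -1.58 without LoVo 1 and -1.60 without LoVo 3. With DESeq2, RRM2B, CDC6, BIRC5 and RPL37 were not past 2-fold either, and with total counts only or protein-coding genes only, neither were BUB3 and HSPA5.

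Types of transcript also differed. Of 781 lincRNAs, 36.1% were higher in LoVo and 18.2% in HCT116, and of 977 antisense genes 31.1% and 8.19%, with medians of 0.82 and 0.81. Among 13574 protein-coding genes the shares were 12.3% and 16.7%, with a median of -0.10. Antisense and intronic counts were low, with median levels of 1.07 and 1.71 CPM for antisense genes in HCT116 and LoVo. Whether counting used strand is not stated in the sources at hand, and reads of a gene and its antisense partner may then be mixed.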

How the data were processed

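The authors deposited raw read counts per Ensembl gene and a table of FPKM, which are those counts divided by gene length and by library total, as the values show. Per the submitters' processing notes, the aligner was HISAT2 2.1.0 and the genome GRCh38. The counter, the annotation release and use of strand were not given in the sources used here. The columns headed Vector were taken as the HCT116 control by that heading beside the overexpression columns, the least certain mapping. Symbols and positions came from GENCODE v29 and gene name tables, which matched 62652 of 62656 identifiers.

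Counts of the 6 control libraries were filtered with filterByExpr and fitted with edgeR 4.0.16 in R 4.3.3 (TMM factors, quasi-likelihood F test, and glmTreat against a log2 fold change of 1, Benjamini-Hochberg adjustment, threshold 0.05). The tested genes held at least 99.75% of the counts of each library, and the common biological coefficient of variation was 5.69%. Pairs of libraries within a line differed by more than sampling noise (chi-square per degree of freedom 2.401 to 4.617), so none was treated as a library deposited more than once, which does not show that they are separate cultures. Of 63 lists, each is described by counts and medians with no set test, and some members counted in them are not reported here by name. The members and lists were chosen with earlier results of these data known.

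Genes were named by a rule: the genes of the SLERT locus and title, the 15 largest differences per direction with an average log2 CPM of at least 3, and up to 4 members per direction of each list. The rule also took all tested members of the mismatch repair, intestinal transcription factor, MYC network, CDK regulator and HOX lists. It further took the 10 highest genes read in 1 line only or by FPKM per line, and 2 members where none passed. It gave 455 genes, 452 of them tested, of which those that best describe each list appear. Other genes were named from the lists after their values were seen. A gene at 0 in a line is compared with a floor of 3 counts over its 3 libraries, and a gene with 1 to 3 counts by the ratio of counts with an exact 95% interval. Floors and these intervals cover only counting error, as PCR copies cannot be told from molecules here. Alternatives were RLE, upper quartile and total-count scaling, no filter or a mean CPM of at least 1, DESeq2 1.42.0, limma voom 3.58.1, log2(FPKM + 1) and log2(FPKM + 0.1), a replicate block, each library left out, and protein-coding genes only, the last added after seeing the data.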

Additional observations from a re-analysis of the deposited data

How the results depend on the processing

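Genes past 2-fold in these same libraries could hardly change direction, and 0 of the 385 named ones did so under any alternative run. Values near 0 did: 5 of 67 other named genes, the medians of 8 of 62 lists and those of 5 of 23 chromosomes changed sign under at least 1 alternative, none of them further than 0.085 from 0 with TMM. The count past 2-fold was nearly even with TMM (2700 higher in LoVo against 2685 in HCT116). It leaned to HCT116 with DESeq2 (2166 against 2287), limma voom (2402 against 2467) and protein-coding genes only (1816 against 2088). It did so too with no filter (3240 against 3320) and without each LoVo library in turn. A mean CPM of at least 1 gave 2265 against 2270. The other alternatives leaned to LoVo or were nearly even. Windows, promoters and gene types were not recomputed under the alternatives. With log2(FPKM + 1), 2314 genes were past 2-fold, 1233 higher in LoVo and 1081 higher in HCT116, because the pseudocount shrinks differences of low genes. With 0 counts demanded of the silent line, 71 genes were read in LoVo only and 95 in HCT116 only, and with at least 1 CPM in the other line 375 and 465. Leaving out 1 library at a time gave 13366 to 13596 genes called, 5487 to 5570 past 2-fold, 2708 to 2807 of them higher in LoVo and 2688 to 2817 higher in HCT116. The deviations of same-numbered libraries from the mean of their line had correlations of 0.0449, 0.00889 and 0.0293. Each library correlated best with its own number. Sampling noise keeps such correlations small, so these values cannot decide whether the numbers pair the libraries. A fit with the replicate number as a block gave 13577 called and 5335 past 2-fold. DESeq2 gave 12993 and 4453, and limma voom 13511 and 4869. With protein-coding genes only, chosen after seeing the data, 11065 genes were called and 3904 were past 2-fold, 46.5% of them higher in LoVo, and with total counts only 54.1%, against 50.1% with TMM. The largest shift of the median log2 fold change under another scaling was 0.096, with total counts only. Among the 385 named genes past 2-fold, 126 were no longer past it with log2(FPKM + 1), 45 with log2(FPKM + 0.1), 28 with DESeq2 and 13 with limma voom. Medians of the lists did not change when genes at 0 in a line were set at their floor. A median depends on rank and such genes keep their direction, so little change was possible. With 3 libraries a line, differences in genes of a few counts remain uncertain, and genes under the count filter were not tested.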
